A study of Mus musculus with 20 samples.

Results

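Cic, Atxn1 and Atxn1l encode the transcriptional repressor capicua and its co-repressors ataxin-1 and ataxin-1-like. They were found as every probe set of the array whose only gene symbol was one of these names, which gave 7 probe sets of 45037, for 3 of the 17097 genes with 1 symbol. Cic had 1 probe set (1415746_PM_at), Atxn1 had 3 (1434451_PM_at, 1438294_PM_at and 1450499_PM_at) and Atxn1l had 3 (1435921_PM_at, 1445624_PM_at and 1455507_PM_s_at). The Atxn1l probe sets 1435921_PM_at and 1455507_PM_s_at were designed on the same transcript sequence, so they are not independent readings of the gene. RNA was measured on 20 mouse Affymetrix arrays in 4 groups. The first was 6 CIC-DUX4 sarcomas (CDS), which arose after embryonic mesenchymal cells (eMC) carrying CIC-DUX4 were transplanted. The second was 6 Ewing sarcomas (ES), whose driver the labels do not name, and both tumor types grew under the skin of Balb/c nude mice and were not treated. The third was 4 arrays of primary eMC given the pMYs-CIC-DUX4-IRES-GFP retrovirus (eMC CIC-DUX4). The last was 4 arrays of eMC given pMYs-IRES-GFP (eMC empty), and both cultures were collected 48 hr after transduction in Iscove's modified DMEM with 15% serum. Nude mice lack a thymus, so tumor tissue holds host cells other than mature T cells. The labels give no mouse age and no share of transduced cells. They leave unsaid if each eMC array was its own culture, so the p-values measure the spread between these arrays, which may be technical for the eMC.

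Capicua is an HMG-box protein that binds short octamers in regulatory DNA and represses genes such as the ETS factors Etv1, Etv4 and Etv5. Ataxin-1 and ataxin-1-like bind capicua through their AXH domain, stabilise it and help it repress, while receptor tyrosine kinase signalling through ERK relieves the repression. In CIC-DUX4 the greater part of capicua is joined to the activating tail of the double-homeobox protein DUX4, which turns the repressor into an activator of the same genes. Expansion of a polyglutamine tract in human ataxin-1 causes an inherited spinocerebellar ataxia.

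In the RefSeq annotation of GRCm38.p6, Cic lies on chromosome 7 (25267658 to 25294159), Atxn1l on chromosome 8 (109726451 to 109737794) and Atxn1 on chromosome 13 (45549755 to 45964991). Cic is the gene of the 3 that rose in CDS tumors against eMC empty. Which of the transcripts that begin at its 2 annotated starts its single probe set reads was not examined. The RefSeq promoter table places these starts at 25267699 and 25282179, both inside the gene's interval. The 200 bases that end 51 bases before each of them are therefore shown, 5′ to 3′ on the plus strand, with CCAAT or its reverse complement ATTGG in capitals. The first stretch is chr7:25267449-25267648 and the second, within the gene, is chr7:25281929-25282128.
Cic, upstream start: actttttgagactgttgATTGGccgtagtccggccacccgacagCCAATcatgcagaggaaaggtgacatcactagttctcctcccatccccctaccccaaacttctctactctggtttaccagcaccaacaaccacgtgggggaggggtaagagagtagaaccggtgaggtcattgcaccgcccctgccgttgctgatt
Cic, internal start: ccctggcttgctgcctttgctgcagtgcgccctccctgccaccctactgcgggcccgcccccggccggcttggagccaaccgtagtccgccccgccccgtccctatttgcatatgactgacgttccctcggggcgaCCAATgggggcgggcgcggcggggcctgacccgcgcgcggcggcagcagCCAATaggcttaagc
Both stretches held 2 such pentamers, and the GC content was 54.5% before the upstream start and 72.0% before the internal start. CCAAT on either strand was found in 28.4% of the 32851 stretches of this length in the promoter table. The octamers bound by capicua, TGAATGAA and TGAATGGA, were searched on both strands of the full windows of 300 bases. They were found in 0 of the 3 windows of Cic and Atxn1l and in 811 of all 32851 windows (2.47%). A match or its absence is a description of these letters alone.

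The deposited arrays had unlike distributions. Their trimmed mean was nearly equal, 500.1 to 500.3 on the linear scale, but the 75th percentile of the log2 signal lay between 4.10 and 8.95. The median log2 signal was 6.10, 7.03, 2.08 and 1.85 in eMC CIC-DUX4 5, 6, 7 and 8. It was 5.63 in CDS 2, where the lowest of the CDS arrays was 2.45. Moving arrays to the same median, an alternative used below, thus drives arrays of these 2 groups apart. A call kept or lost after that shift decides nothing for them. The median log2 fold change over all 26897 probe sets tested between eMC CIC-DUX4 and eMC empty was 1.98 as deposited and -0.01 after quantile normalization, which gives every array the same distribution. Tests are therefore given on both scales, and "rose" and "fell" are kept for an adjusted p under 0.05 and a log2 fold change of at least 1 on both, in the same direction (limma, Benjamini-Hochberg over all probe sets tested). A signal is called dim where it lay below the dip between the dim and the bright part of its array's distribution, and eMC CIC-DUX4 6 had no such dip. The dip lay between 3.36 (eMC CIC-DUX4 5) and 8.19 (eMC empty 5), so a signal that is dim in 1 array can be bright in another. The genes Etv1, Etv4, Etv5, Ccnd2 and Muc5ac, markers of CIC-DUX4 tumors, averaged 14.2 to 14.6 in CDS arrays after quantile normalization, against 6.16 to 7.45 in ES, 7.31 to 7.39 in eMC CIC-DUX4 arrays and 6.13 to 6.42 in those of eMC empty. The Ewing sarcoma markers Fli1, Nkx2-2, Nr0b1, Cd99 and Prkcb were no higher in ES tumors (5.40 to 6.20) than in CDS tumors (6.91 to 7.38), and Nr0b1 was dim in every ES array, so ES is used here as a label only. The mean of 10 mesenchymal markers was 9.90 to 10.4 in CDS, 7.97 to 10.4 in ES, 11.4 to 11.6 in eMC CIC-DUX4 arrays and 11.0 to 11.2 in those of eMC empty, with Col1a2 and Twist1 dim in every ES array and Col1a2 in every eMC empty array. The mean of 6 macrophage markers was 9.42 to 9.57 in eMC CIC-DUX4 arrays and 8.42 to 8.67 in those of eMC empty, where Ptprc and Csf1r were dim in every array.

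Of the 7 probe sets, 5 passed the filter on dim signals. Atxn1 1450499_PM_at and Atxn1l 1445624_PM_at did not, being above the array's median in 0 of 20 arrays. Atxn1 1450499_PM_at averaged log2 signals of 2.43 in CDS, 2.22 in ES, 3.19 in eMC CIC-DUX4 arrays and 2.52 in those of eMC empty, and was dim in each of the 19 arrays with a dip. Atxn1l 1445624_PM_at averaged 2.64 in CDS, 2.24 in ES, 3.75 in eMC CIC-DUX4 arrays and 2.53 in those of eMC empty, and was above the dip in 1 of 19 arrays.

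Cic was highest in CDS tumors and lowest in ES tumors once the arrays shared a distribution. Its quantile-normalized log2 signal had a lowest value of 8.14, a median of 8.85 and a highest of 10.19 in CDS tumors. In ES tumors the lowest was 5.54, the median 6.71 and the highest 7.96. The CDS and ES arrays did not overlap, as for 21.6% of all probe sets on this scale, with CDS 1 the lowest of its group and ES 41 the highest of its own. The 4 eMC CIC-DUX4 arrays had 8.16, 7.92, 8.04 and 8.02, and the 4 eMC empty arrays had 7.82, 7.71, 7.73 and 7.50. The means of the cultures lay between those of the tumor types, and ES 41 was within the range of the cultures. The order of means was 8.93 ± 0.68 in CDS (SD, n = 6), 8.04 ± 0.10 in eMC CIC-DUX4 (n = 4), 7.69 ± 0.13 in eMC empty (n = 4) and 6.72 ± 0.76 in ES (n = 6).

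The signals of Cic as deposited were more scattered. In CDS tumors they had a lowest value of 5.76, a median of 9.62 and a highest of 10.44, and in ES tumors 3.54, 7.89 and 8.74. The eMC CIC-DUX4 arrays had 9.39, 9.23, 9.21 and 9.09, against 4.77, 4.97, 4.43 and 7.37 in the eMC empty arrays. The 2 eMC groups did not overlap, as for 53.2% of all probe sets as deposited, and Cic was dim in 3 of 4 eMC empty arrays, in 1 of 6 CDS arrays (CDS 5), in 1 of 6 ES arrays (ES 48) and in 0 of the 3 arrays with a dip among eMC CIC-DUX4.

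**Figure D1:**
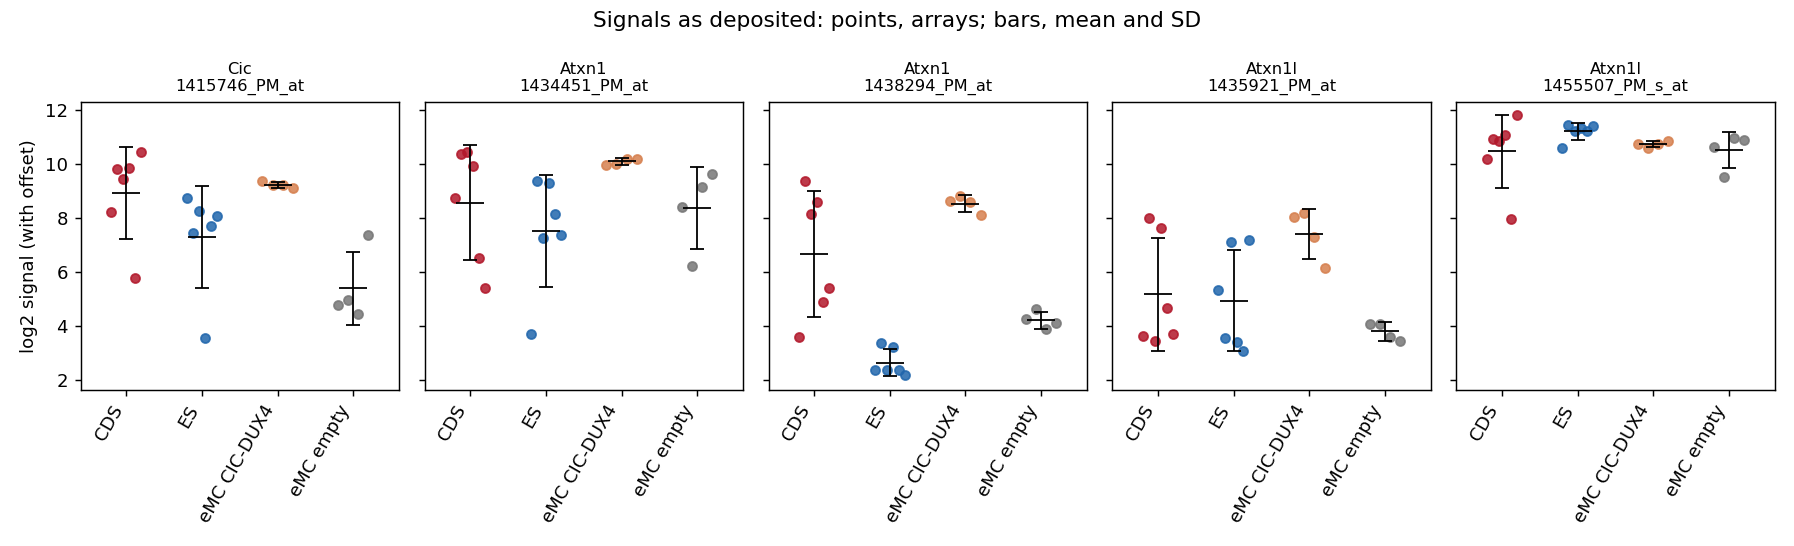
Log2 signals as deposited (vertical axis, with the offset added) of the 5 probe sets that passed the filter, by group; points are arrays and bars the mean and SD (n = 6, 6, 4 and 4). The eMC empty arrays sit low for Cic, Atxn1 1438294_PM_at and Atxn1l 1435921_PM_at, while Atxn1l 1455507_PM_s_at is high in all 4 groups.

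**Figure D2:**
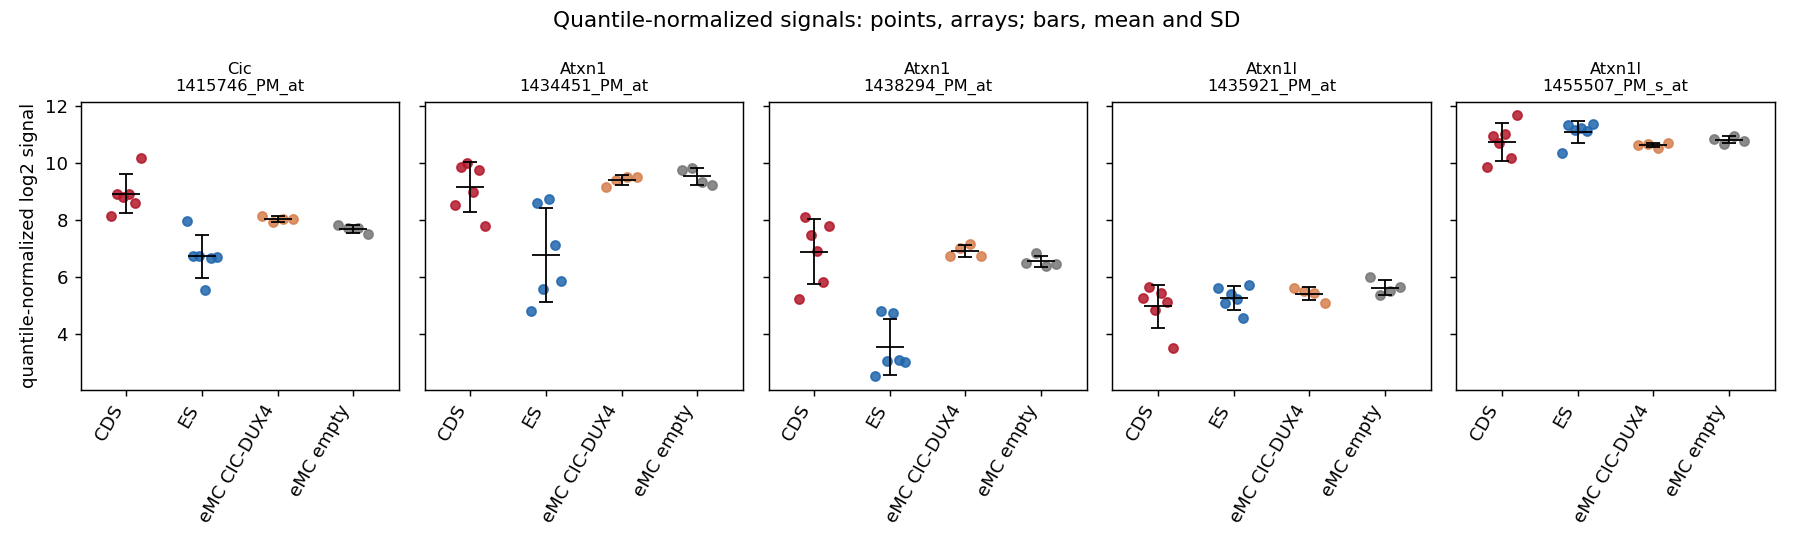
The same 5 probe sets after quantile normalization (vertical axis, log2 signal), by group; points are arrays and bars the mean and SD. Most of the gap between the 2 eMC groups is gone for these probe sets, and the ES arrays are the lowest group for Cic and for both Atxn1 probe sets.

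Cic rose in CDS tumors against eMC empty. Its log2 fold change was 3.53 ± 1.02 as deposited (SE; limma adjusted p = 0.0195) and 1.24 ± 0.34 after quantile normalization (95% interval 0.49 to 1.98, limma adjusted p = 0.00938). Cic was dim in 3 of 4 eMC empty arrays and in 1 of 6 CDS arrays, so neither value is an exact fold. In bulk tissue, more cells that express a gene and more RNA per cell cannot be told apart. The eMC that formed CDS tumors carried CIC-DUX4, and eMC empty did not. Whether the Cic probe set also reads the retroviral CIC-DUX4 transcript was not tested. The call rested on few arrays. As deposited it was lost without eMC empty 4 (adjusted p = 0.0655, limma), eMC empty 5 (0.0555) or eMC empty 6 (0.0627), and after quantile normalization without CDS 6, where the log2 fold change was 0.98 (limma adjusted p = 0.00312), just under the fold threshold. With the arrays moved to the same median, the log2 fold change was 2.82 (limma adjusted p = 0.167). The excess of the 3′ over the 5′ probe set of Actb, a measure of RNA quality, was 0.80 ± 0.36 in CDS tumors and 0.17 ± 0.03 in eMC empty arrays (log2, SD), and its part in the result was not tested. The mean of 6 endothelial markers was 7.81 to 8.42 in CDS arrays and 3.11 to 3.30 in eMC empty arrays after quantile normalization, with all 6 dim in every eMC empty array. The 2 erythroid markers on the array, Hba-a1 and Alas2, averaged 7.47 to 10.9 in CDS arrays and 4.23 to 5.55 in eMC empty arrays, where both were dim. The part of these cells in the Cic result was not tested.

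Between the tumor types, Cic was higher in CDS than in ES tumors after quantile normalization, by 2.20 ± 0.42 on the log2 scale (95% interval 1.31 to 3.10, limma adjusted p = 0.000839), or 4.61-fold. As deposited the difference had the same direction, 1.63 ± 0.93, and missed the threshold (limma adjusted p = 0.202), and with the arrays moved to the same median it was 0.61 (limma adjusted p = 0.687). The Actb excess was 0.25 ± 0.05 in ES tumors, below that in CDS tumors, and the endothelial mean was 4.43 to 7.15 in ES tumors, below the 7.81 to 8.42 of CDS tumors, with Tek and Tie1 dim in every ES array. Their part was not tested. Whether the Cic probe set also reads the retroviral CIC-DUX4 transcript was not tested either, since probe sequences were not used here.

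In the eMC 48 hr after transduction, the size of the Cic difference depended on the scale. The log2 fold change of eMC CIC-DUX4 over eMC empty was 3.84 ± 0.63 as deposited (limma adjusted p = 0.000624), which is 1.87 above the median of all probe sets. After quantile normalization it was 0.35 ± 0.13 (95% interval 0.07 to 0.63, limma adjusted p = 0.0394), or 1.27-fold, and the arrays did not overlap, as for 48.2% of all probe sets on this scale. The quantile-normalized value is under the fold threshold, so the change was called on the deposited scale alone. With the arrays moved to the same median it was 2.28 (limma adjusted p = 0.297), but that shift drives the eMC CIC-DUX4 arrays apart. Cic was dim in 3 of 4 eMC empty arrays, so none of these values is an exact fold. Here too, a reading of the retroviral CIC-DUX4 transcript by the probe set was not tested.

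Against eMC CIC-DUX4, CDS tumors had 0.89 ± 0.34 more Cic on the quantile-normalized log2 scale (95% interval 0.16 to 1.62, limma adjusted p = 0.0423), under the fold threshold. The same difference was -0.31 ± 0.79 as deposited (limma adjusted p = 0.801), so the sign depended on the scale. ES tumors against eMC empty also gave opposite signs. Their log2 fold change of Cic was 1.91 ± 1.05 as deposited (limma adjusted p = 0.152) and -0.97 ± 0.40 after quantile normalization (95% interval -1.84 to -0.09, limma adjusted p = 0.0631). The call also turned with the array left out. As deposited, Cic was called higher without ES 48 (2.66, limma adjusted p = 0.0111), and after quantile normalization lower without ES 41 (-1.22, limma adjusted p = 0.00741).

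**Figure D3:**
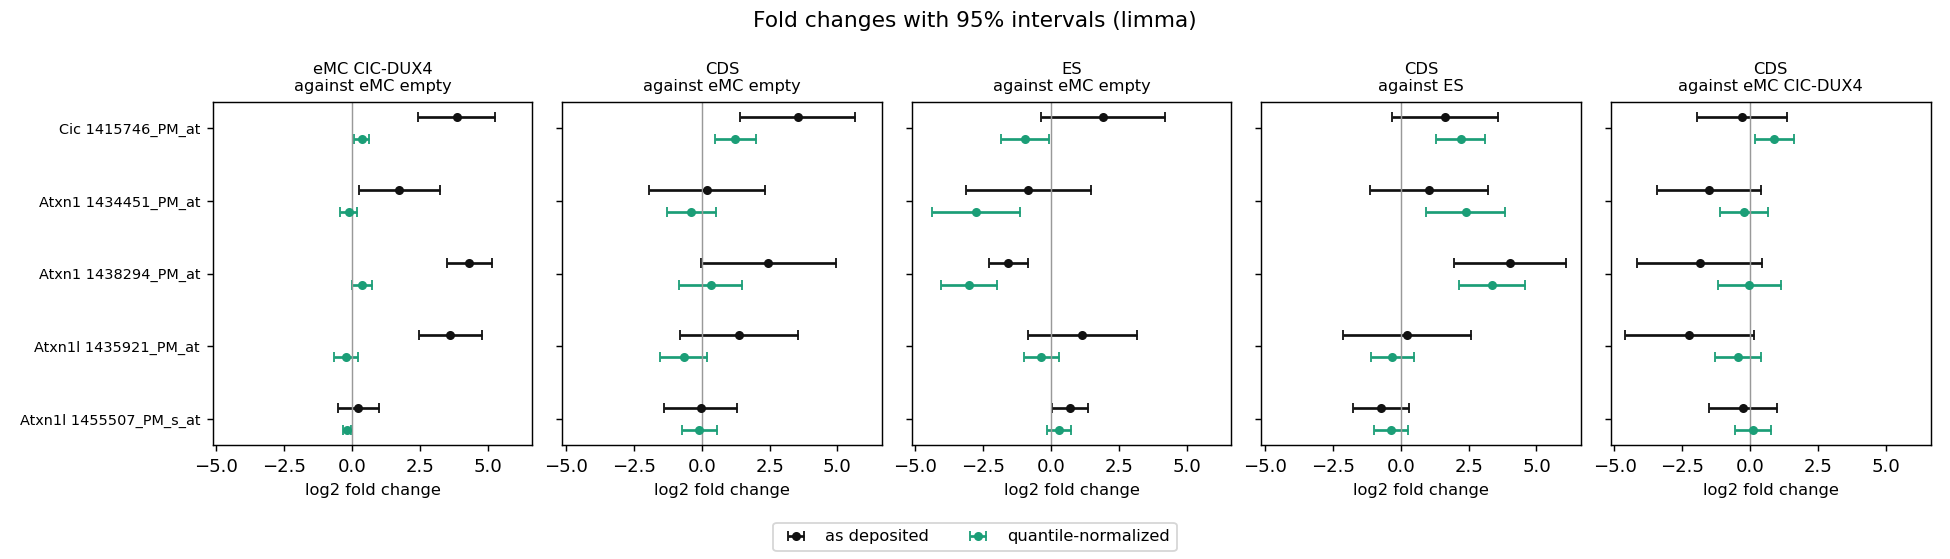
Log2 fold change (horizontal axis) with its 95% interval for each probe set tested, in the 5 comparisons; black points are values as deposited and green points quantile-normalized values. For Cic in CDS against eMC empty and Atxn1 1438294_PM_at in CDS against ES, both intervals lie above 0 and both calls were made.

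Atxn1 was read by a bright probe set, 1434451_PM_at, and by the dimmer 1438294_PM_at. Both were lowest in ES tumors. The quantile-normalized log2 signal of 1434451_PM_at had a lowest value of 7.78, a median of 9.39 and a highest of 10.01 in CDS tumors, and 4.79, 6.49 and 8.73 in ES tumors. The eMC CIC-DUX4 arrays had 9.17, 9.42, 9.52 and 9.53, and the eMC empty arrays 9.76, 9.82, 9.33 and 9.25. The cultures sat within the range of the CDS tumors, while the ES tumors were widely spread, and the tumor types overlapped. As deposited the signal was 5.41, 9.33 and 10.43 in CDS tumors (lowest, median and highest) and 3.69, 7.76 and 9.36 in ES tumors. The deposited signals were 9.97, 10.02, 10.20 and 10.20 in eMC CIC-DUX4 arrays and 8.42, 6.20, 9.16 and 9.65 in eMC empty arrays.

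For 1438294_PM_at, the quantile-normalized log2 signal was 5.21, 7.19 and 8.11 in CDS tumors (lowest, median and highest), against 2.50, 3.06 and 4.82 in ES tumors. The tumor types did not overlap, as for the 21.6% of all probe sets given above. The eMC CIC-DUX4 arrays had 6.75, 7.03, 7.16 and 6.73, and the eMC empty arrays 6.50, 6.84, 6.40 and 6.46. The eMC arrays lay within the range of the CDS tumors. As deposited the signal was 3.59, 6.78 and 9.38 in CDS tumors and 2.17, 2.36 and 3.38 in ES tumors, 8.64, 8.82, 8.58 and 8.10 in eMC CIC-DUX4 arrays and 4.26, 4.62, 3.88 and 4.09 in eMC empty arrays. This probe set was dim in all 6 ES and all 4 eMC empty arrays and above the dip in 3 of 6 CDS arrays.

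Atxn1 1438294_PM_at rose in CDS tumors against ES tumors. The log2 fold change was 4.03 ± 0.99 as deposited (limma adjusted p = 0.00795). Every ES array and 3 of the 6 CDS arrays were dim, so no fold is given. After quantile normalization the log2 fold change was 3.36 ± 0.57 (95% interval 2.14 to 4.57, limma adjusted p = 0.000344). The bright probe set pointed the same way, with 2.39 ± 0.68 after quantile normalization (95% interval 0.93 to 3.85, limma adjusted p = 0.0124) but 1.05 as deposited (limma adjusted p = 0.468). Within the ES tumors, both probe sets were highest in ES 46 and ES 48. The mean of 6 skeletal muscle genes (Acta1, Ckm, Myh4, Mylpf, Tnnt3 and Myl1) was 14.8 in ES 46 and 15.4 in ES 48, and between 3.96 and 14.3 in the other ES arrays. Among CDS tumors the same mean was 14.0 to 15.3 in CDS 3, 4 and 5 and 5.61 to 6.46 in CDS 1, 2 and 6. The part of muscle in these values was not tested.

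**Figure D4:**
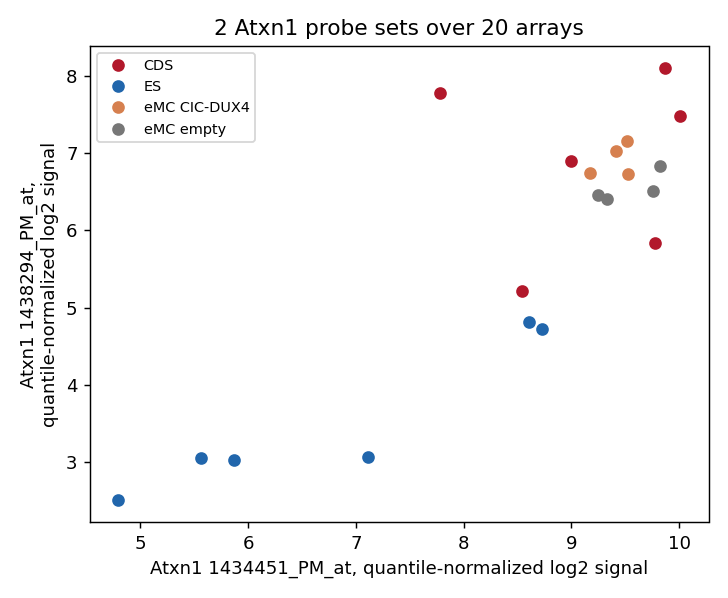
Quantile-normalized log2 signal of Atxn1 1434451_PM_at (horizontal axis) and 1438294_PM_at (vertical axis); each point is an array, colored by group. The 6 ES arrays are the lowest on the vertical axis, and ES 46 and ES 48 stand at the upper end of them on both axes.

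Against eMC empty, Atxn1 1438294_PM_at fell in ES tumors, with a log2 fold change of -1.58 ± 0.33 as deposited (limma adjusted p = 0.00214) and -3.02 ± 0.47 after quantile normalization (95% interval -4.05 to -1.99, limma adjusted p = 0.000284). All arrays of both groups were dim, so no fold is given, and the call as deposited was lost with an offset of 16 (-0.66) or with all 4 groups in the fit (limma adjusted p = 0.201). For 1434451_PM_at the difference between ES and eMC empty was -0.84 as deposited (limma adjusted p = 0.529) and -2.76 ± 0.74 after quantile normalization (95% interval -4.38 to -1.14, limma adjusted p = 0.00902). On both scales and both probe sets the ES mean was the lower one.

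In the cultured cells no change of Atxn1 was called on both scales. For 1438294_PM_at the log2 fold change of eMC CIC-DUX4 over eMC empty was 4.32 ± 0.37 as deposited (limma adjusted p = 1.78e-05), at least 3.19-fold, but 0.37 ± 0.17 after quantile normalization (95% interval -0.01 to 0.75, limma adjusted p = 0.0942). For 1434451_PM_at it was 1.74 ± 0.67 (limma adjusted p = 0.0507) and, after quantile normalization, -0.13 ± 0.14 (95% interval -0.43 to 0.18, limma adjusted p = 0.462). The second was called as deposited without eMC empty 5 (1.02, limma adjusted p = 0.0273), eMC empty 6 (2.01, 0.0426) or eMC empty 7 (2.17, 0.0152). With the arrays moved to the same median, the first was 2.76 (limma adjusted p = 0.162) and no longer called.

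No Atxn1 probe set was called in CDS tumors against eMC empty. As deposited the difference was 0.21 ± 1.02 for 1434451_PM_at (limma adjusted p = 0.883) and 2.45 ± 1.19 for 1438294_PM_at (limma adjusted p = 0.148), and the second was called with all 4 groups in the fit (limma adjusted p = 0.0489). The quantile-normalized difference was -0.38 ± 0.41 for 1434451_PM_at (95% interval -1.27 to 0.52, limma adjusted p = 0.462) and 0.34 ± 0.53 for 1438294_PM_at (95% interval -0.82 to 1.49, limma adjusted p = 0.614). Against eMC CIC-DUX4, the difference of CDS tumors as deposited was -1.53 ± 0.90 for 1434451_PM_at (limma adjusted p = 0.246) and -1.87 ± 1.08 for 1438294_PM_at (limma adjusted p = 0.237). After quantile normalization it was -0.25 for 1434451_PM_at (95% interval -1.13 to 0.64) and -0.03 ± 0.53 for 1438294_PM_at (95% interval -1.19 to 1.12). The last interval leaves room for differences of over 1 log2 unit in either direction.

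Atxn1l 1455507_PM_s_at was bright in all groups, above the dip in 18 of the 19 arrays with one, and passed no fold threshold in any comparison. After quantile normalization its lowest, median and highest log2 signals were 9.85, 10.83 and 11.70 in CDS tumors and 10.34, 11.20 and 11.38 in ES tumors. The eMC CIC-DUX4 arrays had 10.65, 10.66, 10.52 and 10.69, and the eMC empty arrays 10.87, 10.68, 10.96 and 10.79. All groups lay within the range of the CDS tumors. The quantile-normalized difference was -0.08 ± 0.30 for CDS against eMC empty (95% interval -0.74 to 0.57, limma adjusted p = 0.831), and 0.27 for ES against eMC empty (95% interval -0.17 to 0.72, limma adjusted p = 0.283). For CDS against ES it was -0.36 ± 0.29 (95% interval -0.98 to 0.27, limma adjusted p = 0.364), and for CDS against eMC CIC-DUX4 0.11 (95% interval -0.55 to 0.76, limma adjusted p = 0.782). None of these 4 quantile-normalized intervals reaches 1 log2 unit. As deposited the differences were -0.04 ± 0.64 for CDS against eMC empty, 0.70 ± 0.31 for ES against eMC empty, -0.74 ± 0.50 for CDS against ES and -0.27 ± 0.59 for CDS against eMC CIC-DUX4 (limma adjusted p = 0.965, 0.0834, 0.274 and 0.774 in that order). In eMC CIC-DUX4 against eMC empty it was -0.19 ± 0.07 after quantile normalization (95% interval -0.35 to -0.04, limma adjusted p = 0.0399), a ratio of 0.876, and 0.23 ± 0.34 as deposited (limma adjusted p = 0.55), so the sign again depended on the scale.

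The second Atxn1l probe set, 1435921_PM_at, was dim in most arrays. As deposited its lowest, median and highest log2 signals were 3.44, 4.17 and 8.01 in CDS tumors and 3.08, 4.42 and 7.20 in ES tumors. The eMC CIC-DUX4 arrays had 8.02, 8.19, 7.30 and 6.13, against 4.08, 4.08, 3.59 and 3.42 in the eMC empty arrays, which were all dim. The fold between the cultures was at least 1.46-fold, with a fitted log2 fold change of 3.62 ± 0.52 (limma adjusted p = 0.000279). After quantile normalization the sign turned, to -0.22 ± 0.20 (limma adjusted p = 0.369), with 5.59, 5.51, 5.44 and 5.09 in eMC CIC-DUX4 arrays and 5.98, 5.37, 5.51 and 5.66 in those of eMC empty. In the comparisons of tumors this probe set was not called on either scale, and the sign of 3 of the 4 depended on the scale. As deposited the differences were 1.38 ± 1.04 for CDS against eMC empty, 1.15 ± 0.93 for ES against eMC empty, 0.23 ± 1.13 for CDS against ES and -2.24 ± 1.12 for CDS against eMC CIC-DUX4. After quantile normalization they were -0.67 for CDS against eMC empty (95% interval -1.52 to 0.19), -0.36 for ES against eMC empty, -0.30 for CDS against ES and -0.44 for CDS against eMC CIC-DUX4. As deposited it was called lower in CDS than in eMC CIC-DUX4 without CDS 2 (-2.81, limma adjusted p = 0.0444).

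Counted over the 5 probe sets tested, the members are read here against the share of all probe sets called. In eMC CIC-DUX4 against eMC empty, 3 of 5 were called as deposited, where 47.5% of all probe sets were, 0 of 5 after quantile normalization (13.5% of all) and 0 of 5 on both (7.34%). Without the fold threshold, 2 of the 5 had an adjusted p under 0.05 after quantile normalization (limma), Cic and Atxn1l 1455507_PM_s_at. The share of all probe sets under this looser rule is not given here, so the 2 are not read as a result. Of the 5 in CDS against eMC empty, 1 was called as deposited (18.1% of all), after quantile normalization (38.1%) and on both (15.6%), and it was Cic. In ES against eMC empty, 1 was called as deposited (35.6%), 2 after quantile normalization (37%) and 1 on both (21.4%), which was Atxn1 1438294_PM_at. In CDS against ES, 1 was called as deposited (19.8%), 3 after quantile normalization (30.8%) and 1 on both (17.4%), and the 3 were Cic and both Atxn1 probe sets. Between CDS and eMC CIC-DUX4, 0 were called on either scale (limma), against 16.6% of all probe sets as deposited, 36.1% after quantile normalization and 15.4% on both. The comparisons share arrays, so their counts are not independent.

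Of 24 partners and regulators of capicua and ataxin-1 taken from background knowledge, 15 were on the array and 14 were tested. None was called on both scales in eMC CIC-DUX4 against eMC empty (limma), where 7.04% of all probe sets rose and 0.305% fell. Between CDS and eMC empty, 5 of 14 rose and 1 fell, where 12% of all probe sets rose and 3.66% fell. The 3 with the largest change were Nlk, a kinase that acts on ataxin-1, with 4.97 as deposited and 2.59 after quantile normalization, Sin3a, the scaffold of a histone deacetylase complex, with 3.72 and 1.51, and Dyrk1a, a kinase, with 3.63 and 1.53 on the log2 scale. The one that fell was Trim25, a ubiquitin ligase, with -2.67 as deposited and -2.24 after quantile normalization. Nlk, Sin3a and Dyrk1a, and Ubqln4 named further on, were dim in 3 of the 4 eMC empty arrays. The list's median log2 fold change was 0.89 as deposited, the same as that of all probe sets (0.89), and 0.66 after quantile normalization, against -0.07 for all probe sets.

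Trim25 also fell in CDS tumors against ES tumors, with a mean log2 signal as deposited of 9.53 in CDS and 11.73 in ES tumors, a difference of -2.20 ± 0.54 (limma adjusted p = 0.00764) and -2.02 after quantile normalization. Hbp1, an HMG-box repressor that carries an AXH domain like that of ataxin-1, was the one of the 14 that rose there (8.74% of all probe sets rose and 8.61% fell), by 1.31 ± 0.26 (limma adjusted p = 0.00163) and 1.34 after quantile normalization. The list's median was -0.02 as deposited, against 0.21 for all probe sets, and 0.35 after quantile normalization, against -0.03. Of the 14 in CDS against eMC CIC-DUX4, 2 rose (3.44% of all probe sets did) and 1 fell (11.9%). These were Hdac1, a histone deacetylase, with 1.69 and 2.13 after quantile normalization, Nlk with 1.69 and 2.98, and Trim25 with -2.20 and -2.23. In ES against eMC empty, 2 of 14 rose (13.6% of all) and 1 fell (7.73%). Those were Nlk (5.24, and 2.70 after quantile normalization), Ubqln4, a ubiquitin-receptor partner of ataxin-1 (4.19 and 1.11), and Sin3b, a paralog of Sin3a (-1.27 and -1.31).

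Most target genes of capicua rose in CDS tumors against each other group. Of 16 such targets from background knowledge, 14 were tested. In CDS against ES, 14 of 14 rose, where 8.74% of all probe sets did, with a median log2 fold change of 3.91 as deposited and 4.12 after quantile normalization. The largest were Etv4, dim in 5 of 6 ES arrays, with 9.18 and 8.78 after quantile normalization, Ccnd2, a D-type cyclin, with 6.26 and 6.80, and Etv1 with 5.68 and 6.17. Shc3, counted here and against eMC empty, was dim in all 6 ES, all 4 eMC empty and 4 of 6 CDS arrays. In CDS against eMC empty, 13 of 14 rose and 0 fell (limma), where 12% of all probe sets rose, led by Etv1 (at least 246-fold as deposited), Etv4 (at least 69.4-fold) and Etv5 (9.55 on the log2 scale, 7.13 after quantile normalization). In CDS against eMC CIC-DUX4, 11 rose and 0 fell (limma), where 3.44% of all probe sets rose. Among them were Etv4, which has no exact fold because it was dim in eMC CIC-DUX4 (all 3 arrays that have a dip), Etv1 (5.95 as deposited and 7.15 after quantile normalization) and Spred3, an inhibitor of Ras signalling (4.71 and 6.83). In eMC CIC-DUX4 against eMC empty, 2 of 14 rose, Etv5 (5.32 and 2.87) and Etv1 (at least 3.97-fold), where 7.04% of all probe sets did. Between ES and eMC empty, 6 rose and 3 fell, where 13.6% of all probe sets rose and 7.73% fell, led by Etv1 (at least 4.80-fold), Etv5 (5.24 and 2.67) and Dusp4, a MAP kinase phosphatase (5.06 and 2.56). Etv5 and Dusp4 were dim in 3 of the 4 eMC empty arrays. The same list was known to be high in these tumors when it was chosen, so it is no independent evidence of direction.

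Across the 20 arrays the 3 genes did not share one pattern. The Pearson correlation of quantile-normalized log2 signals was 0.85 between the 2 Atxn1 probe sets, 0.32 between Cic and Atxn1 1434451_PM_at, 0.67 between Cic and Atxn1 1438294_PM_at, and -0.18 between Cic and Atxn1l 1455507_PM_s_at. For the Atxn1l probe sets 1435921_PM_at and 1455507_PM_s_at it was -0.35. The genes whose pattern was most like that of Cic were Rnf157 (0.94), Sh3bgrl (0.94), Copa (0.93) and Rbms2 (0.92). For Atxn1 1434451_PM_at they were Sun2 (0.96), Rhoq (0.95), Phlda3 (0.95) and Ndufv3 (0.95), and for Atxn1l 1455507_PM_s_at Gsk3b (0.89), Zfp84 (0.86), Rprd2 (0.84) and Tada2b (0.81). The arrays share 4 groups, so these correlations describe group levels and hold no test.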

How the data were processed

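RNA from the 20 samples was hybridised to 1 Affymetrix array each. The authors deposited log2 signals made with MAS5, per the submitters' processing notes. No version or setting of it is given in the sources used. Controls (104 of 45141 probe sets) were left out. Of the rest, 28898 had 1 gene symbol in the platform annotation, 551 several and 15588 none. The signals were returned to the linear scale, an offset of 1.423 (0.25 of the median of array medians, 5.69) was added, and log2 was taken again. A probe set was tested if above its array's median in at least 4 arrays (26897 passed). R 4.3.3 and the data.table package (version 1.17.8) were used. For each comparison, limma 3.58.1 (two-sided; lmFit, then eBayes with a trend) was fitted to the 2 groups compared, on these values and after quantile normalization. The dip is the density minimum that separates dim from bright probe sets of an array (bandwidth 0.35). A fold written "at least" sets the brighter mean against the mean, per array of the dimmer group, of whichever is higher, dip or signal, and holds for the deposited scale. It bounds the deposited signals and not the RNA, since the dips of the arrays differed. The number of arrays limits the precision. There were 0 arrays with identical values.

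All member probe sets are named. Of each list, up to 3 genes called on both scales with the largest absolute log2 fold change are named, each by its probe set of the highest mean, and genes of like pattern are the 4 with the highest correlation. The members and lists were chosen with earlier results of these data known. Trim25 in CDS against eMC empty was named after its values were seen, and the dip was also adopted then. Alternatives were another scaling, offset, filter, probe set summary, fit, spread model, replicate block, and single arrays left out. The limma fit and the calling rule were tested on simulated data with known changes, and the other steps were not. The replicate numbers were checked: deviations of same-numbered arrays from their group means correlated between -0.21 and 0.51 as deposited and between -0.02 and 0.04 after quantile normalization. So few shared numbers cannot settle whether they pair the samples, and the main fits used no pairing.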

Additional observations from a re-analysis of the deposited data

Results flagged for a closer look

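In 6 of the 56 groups of values examined (7 probe sets, 4 groups, 2 scales), 1 array stood apart from the others by Dixon's criterion, and chance gives about 1 in 20. For Cic, CDS 6 had a quantile-normalized log2 signal of 10.2, above the 8.14 to 8.91 of the other CDS tumors, and ES 48 had a log2 signal of 3.54 as deposited, below the 7.44 to 8.74 of the other ES tumors. ES 41 stood apart in the other 4. Its Atxn1 1434451_PM_at signal was 3.69 as deposited, against 7.26 to 9.36 in the other ES tumors. Its Atxn1l 1455507_PM_s_at signal was 10.6 as deposited, against 11.21 to 11.45, and 10.3 after quantile normalization, against 11.11 to 11.38. Its Atxn1 1450499_PM_at signal was 3.36 after quantile normalization, against 2.39 to 2.71, and was dim. ES 48 also had a keratinocyte marker mean of 10.3 after quantile normalization, against 3.24 to 4.82 in the other ES tumors, and the part of these cells was not tested.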

How the results depend on the processing

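For single probe sets, 972 alternative values kept their direction and their side of the threshold, 20 passed it newly, 12 lost it and 46 changed sign. Of those that changed sign, Atxn1l 1435921_PM_at in eMC CIC-DUX4 against eMC empty (-0.22 after quantile normalization) was called before, and the others were not called. After quantile normalization the deposited sign turned for Cic in CDS against eMC CIC-DUX4 (0.89) and ES against eMC empty (-0.97), Atxn1 1434451_PM_at in CDS against eMC empty (-0.38) and between the cultures (-0.13), Atxn1l 1435921_PM_at in CDS against ES (-0.30), CDS against eMC empty (-0.67) and ES against eMC empty (-0.36), and Atxn1l 1455507_PM_s_at in CDS against eMC CIC-DUX4 (0.11) and between the cultures (-0.19). With arrays moved to the same median it turned for Cic in CDS against eMC CIC-DUX4 (0.54), Atxn1 1434451_PM_at in CDS against eMC empty (-0.50), Atxn1l 1435921_PM_at in CDS against ES (-0.78) and Atxn1l 1455507_PM_s_at in CDS against eMC CIC-DUX4 (0.58) and between the cultures (-1.33). Without the 3 arrays of median log2 signal over 5 it turned for Atxn1 1434451_PM_at in CDS against eMC empty (-0.15) and Atxn1l 1435921_PM_at in CDS against ES (-0.33). With the replicate block it turned for Atxn1 1434451_PM_at in CDS against eMC empty (-0.64) and, after quantile normalization, Atxn1l 1455507_PM_s_at there (0.14) and Atxn1l 1435921_PM_at between the cultures (0.0035). The block fits left out arrays whose replicate number the other group lacks. With an offset of 16, Atxn1 1438294_PM_at in CDS against eMC CIC-DUX4 was 0.012 after quantile normalization. With 1 array left out, signs turned as deposited within -0.61 to 0.32 for Cic and -0.54 to 0.24 for Atxn1l 1455507_PM_s_at in CDS against eMC CIC-DUX4, -0.51 to 0.84 for Atxn1 1434451_PM_at and -0.37 to 0.47 for Atxn1l 1455507_PM_s_at in CDS against eMC empty, -0.33 to 0.69 for Atxn1l 1435921_PM_at in CDS against ES, and -0.10 to 0.38 for Atxn1l 1455507_PM_s_at between the cultures. After quantile normalization they turned within -0.42 to 0.031 for Atxn1 1434451_PM_at, -0.28 to 0.30 for Atxn1 1438294_PM_at and -0.083 to 0.29 for Atxn1l 1455507_PM_s_at in CDS against eMC CIC-DUX4, and -0.27 to 0.10 for Atxn1l 1455507_PM_s_at in CDS against eMC empty. The number of member probe sets called as deposited in eMC CIC-DUX4 against eMC empty (3) was 1 with 1 probe set per gene, 0 after quantile normalization and 0 with arrays moved to the same median, and 3 to 4 with an array left out. With adjusted p alone, 2 were called after quantile normalization and 1 on both scales, in place of 0, and with an array left out 0 to 0. The share of all probe sets called also differed between settings, so these counts describe the settings and not the members. In CDS against eMC empty (1) it was 2 with all 4 groups in the fit, 0 with the same median, and 0 to 1 with an array left out, on both scales too. In ES against eMC empty (1) it was 0 with an offset of 16, with 1 probe set per gene or with all 4 groups, as was the count on both scales, and 2 after quantile normalization, which became 1 with 1 probe set per gene. Leaving out arrays gave 1 to 2, 2 to 3 after quantile normalization and 1 to 1 on both. In CDS against ES (1) it was 3 after quantile normalization and 0 with 1 probe set per gene, also on both scales, and leaving out arrays gave 1 to 1, 3 to 3 and 1 to 1. In CDS against eMC CIC-DUX4 (0) it was 1 with adjusted p alone after quantile normalization, 0 to 1 with an array left out on either scale and 0 to 0 on both. With the replicate number as a block it was 3, where 65.8% of all probe sets were called. That fit kept only the arrays numbered 5 and 6, the numbers both groups share, so it is a smaller comparison. The block moved no other of these counts by over 1.5 times. CDS and ES, and ES and eMC empty, share no replicate numbers. The causes were not tested, apart from the smaller number of probe sets with 1 per gene. Cic in CDS against eMC CIC-DUX4 was called after quantile normalization without CDS 1 (1.05, limma adjusted p = 0.0163). The scale sets the limit here. Between the cultures, 3 member probe sets were called as deposited, where the median log2 fold change of all probe sets was 1.98. With arrays moved to the same median, 0 were called, but that shift drives the eMC CIC-DUX4 arrays apart, so it decides nothing. The differences were small after quantile normalization, which assumes that all arrays have the same distribution. These data do not say which scale is nearer the RNA content.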

Other observations

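Among the partners of capicua, Hdac1, a histone deacetylase, was lower in eMC CIC-DUX4 than in eMC empty after quantile normalization, by a log2 difference of -1.24 ± 0.13 (limma adjusted p = 4.94e-06), and by -0.73 ± 0.21 as deposited (limma adjusted p = 0.015), where it missed the fold threshold. Its mean log2 signal as deposited was 10.36 in eMC CIC-DUX4 arrays and 11.09 in those of eMC empty. The median shift of all probe sets, 1.98 in the other direction, is no measure for a bright gene. Other bright genes of the lists were also lower as deposited, such as Ccnd2 (-0.89) and Rbm17 (-0.81), and some were higher, such as Spry2 (0.37) and Hbp1 (0.25). Hdac1 in this comparison was chosen after its values were seen. Src, a tyrosine kinase that acts on capicua in human cells, was higher in CDS than in ES tumors after quantile normalization, by 2.10 ± 0.46 (limma adjusted p = 0.00228), with 2.17 ± 1.09 as deposited (limma adjusted p = 0.148), and it too was chosen after its values were seen.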
